A study of Mus musculus with 23 samples.

Results

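The wild-type excitatory pyramidal cells of the mouse hippocampus were compared between the population titled CamK and the population titled Grik, in 8 of the 23 libraries of the series. The 8 libraries were chosen by their titles: CamK WT replicates 2 to 5 (n = 4) and Grik WT replicates 3 to 6 (n = 4). The series asked how loss of the RNA-binding protein SLM2 changes expression and splicing in CA1 pyramidal cells, CA3 pyramidal cells and SST+ inhibitory cells. Its other 15 libraries are 3 CamK and 4 Grik libraries labelled SLM2 cKO and 8 SST libraries. All 8 libraries used here were labelled hippocampus, excitatory pyramidal cells, genotype SLM2 WT and polyA RNA, with no treatment named. No source used here gives age, sex, strain, driver alleles or how the cells were isolated. The labels do not state which title word stands for which hippocampal field, so the correspondence of CamK with CA1 and of Grik with CA3 was checked on marker genes. They also do not say that the libraries come from separate animals, so the p-values measure the spread between these samples. In bulk RNA, fewer cells of a type and less RNA per cell cannot be told apart.

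CA3 and CA1 pyramidal cells are successive relays of the hippocampal circuit. CA3 cells receive mossy fibre input from dentate granule cells, excite each other through recurrent collaterals and project to CA1 through the Schaffer collaterals, while CA1 cells send the main output to the subiculum and cortex. The fields are known to differ in their transcription factors, in the kainate receptors of the mossy fibre synapse and in the channels that shape dendritic integration and burst firing.

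Levels are given as counts per 1000000 gene reads (CPM), and every fold change is CamK WT over Grik WT on the log2 scale with a standard error (SE). Fold changes and p-values are from edgeR's quasi-likelihood test with Benjamini-Hochberg adjustment over all 18823 genes tested. That test gives no SE, so the SE was computed as the absolute log2 fold change over the square root of the F statistic. Pou3f1 (chr4:124656807-124660655, GRCm38), a POU-domain transcription factor of CA1, was at 128, 114, 208 and 158 CPM in CamK WT replicates 2 to 5 and 3.34, 4.02, 3.16 and 5.297 CPM in Grik WT replicates 3 to 6. Wfs1, an endoplasmic reticulum protein that marks CA1, was at 290.1, 333, 404 and 398 CPM in CamK WT replicates 2 to 5 and 18.9, 26.1, 24.2 and 29.6 CPM in Grik WT replicates 3 to 6. Fibcd1, a chitin-binding membrane protein of CA1, was at 207, 215, 293 and 255 CPM in CamK WT replicates 2 to 5 and 22.6, 23.2, 27.9 and 27.3 CPM in Grik WT replicates 3 to 6. The groups did not overlap for any of these 3 genes (nor for 38.3% of all genes tested), and every CamK library was the higher one. Their log2 fold changes were 5.26 ± 0.26, 3.85 ± 0.33 and 3.26 ± 0.17 (adjusted p = 1.91e-12, 2.6e-08 and 2.02e-12). Grik4, the kainate receptor subunit typical of CA3, was at 32.6, 26.3, 27.3 and 34.8 CPM in CamK WT replicates 2 to 5 and 119.8, 130.0, 146 and 131 CPM in Grik WT replicates 3 to 6. Its groups did not overlap either, with all Grik libraries above all CamK libraries, a change of -2.12 ± 0.10 (adjusted p = 3.69e-14). Grik4 RNA was thus present in the CamK libraries at a lower level, and Wfs1 and Fibcd1 RNA were present at a lower level in the Grik libraries.

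**Figure D1:**
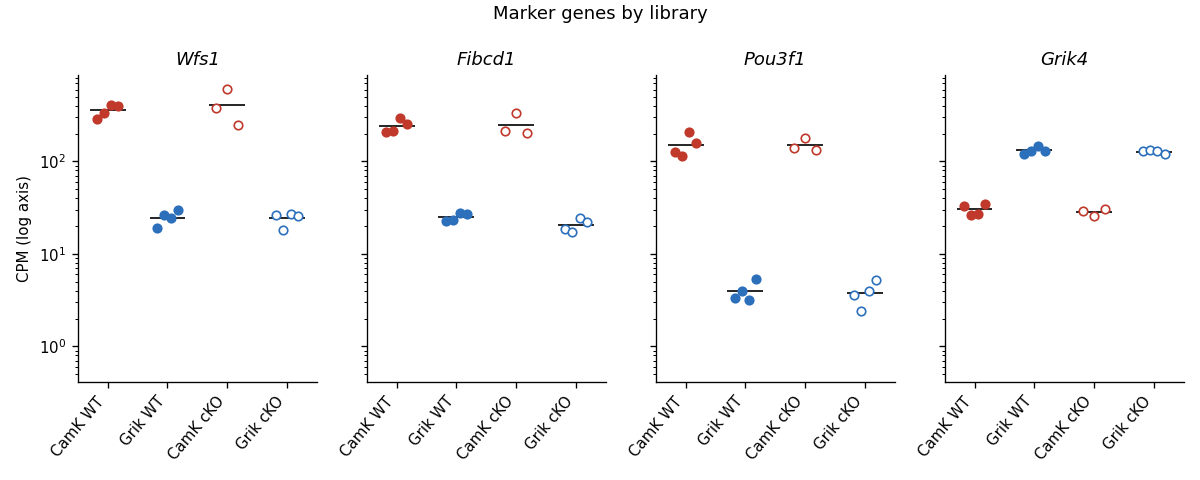
CPM of Wfs1, Fibcd1, Pou3f1 and Grik4 on a log axis in each library, with filled points for WT, open points for libraries labelled cKO and a line at each group's mean. In all 4 panels the 4 CamK WT points and the 4 Grik WT points do not overlap, and the libraries labelled cKO lie at the level of their own population.

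Over all genes tested 42.0% were called, 20.9% higher in CamK WT and 21.1% higher in Grik WT, and 7.53% were called beyond 2-fold. Of the whole list of CA1 markers, 12 of 14 were called higher in CamK WT, all 12 beyond 2-fold. One, the transcription factor Neurod6, was called higher in Grik WT (-0.63 ± 0.19, adjusted p = 0.01, and -0.25 ± 0.34 with an adjusted p of 0.669 under the covariate for non-neuronal RNA described below). Of the CA3 list, 13 of 16 were called higher in Grik WT, 11 of them beyond 2-fold, and none was called higher in CamK WT. Their median log2 fold changes were 3.44 and -2.07, beside 0.01 over all genes tested. These lists name the fields by definition, so their direction describes the samples and is no separate result. Of 12 pan-pyramidal genes, 3 were called higher in CamK WT, 4 higher in Grik WT and 5 were not called, with a median log2 fold change of 0.00 (3 and 0 with the covariate, and 2 higher in Grik WT without CamK WT replicate 3 or Grik WT replicate 5). Arpp21, a cyclic AMP-regulated phosphoprotein, and Baiap2, a postsynaptic scaffold, were among those higher in CamK WT (0.74 ± 0.27 and 0.44 ± 0.12, adjusted p = 0.034 and 0.0047). The call of Arpp21 was lost without CamK WT replicates 3, 4 or 5 or Grik WT replicates 3, 5 or 6 (adjusted p = 0.05002 to 0.0819), without the filter on low counts (0.0584) and with a covariate for sex genes (0.0586). Its log2 fold change stayed of similar size in these fits, at 0.67 to 0.78. Camk2a, the kinase subunit of excitatory synapses, was at 4077 ± 105 CPM in CamK WT and 4609 ± 313 CPM in Grik WT and was not called (adjusted p = 0.0548). It was called higher in Grik WT under 4 alternatives, relative log expression scaling, DESeq2, limma-voom and a fit of only the groups compared (adjusted p = 0.0448, 0.0366, 0.0299 and 0.0409). Slc17a7, the vesicular glutamate transporter VGLUT1, was at 955 ± 97.1 CPM in CamK WT and 1565 ± 262 CPM in Grik WT (SD, n = 4 each), and its change was -0.71 ± 0.24 (adjusted p = 0.0226). Without CamK WT replicate 3, Grik WT replicate 5 or Grik WT replicate 6 the call of Slc17a7 was lost at a fold of similar size (-0.66, -0.65 and -0.63, adjusted p = 0.0511, 0.0506 and 0.0581). With non-neuronal RNA as a covariate (described next) its direction reversed (0.31 ± 0.36, adjusted p = 0.608).

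The libraries also held RNA of marker genes of other cell types, and its level differed between the groups. Summed over 14 oligodendrocyte markers, the level was 163 to 250.4 CPM in CamK WT and 949 to 1345 CPM in Grik WT, and summed over 10 astrocyte markers it was 154 to 239 CPM and 604 to 639 CPM, with no overlap in either case. Most of the astrocyte sum came from Slc1a2, a glutamate transporter, at 174 ± 32.8 CPM in CamK WT and 544 ± 19.5 CPM in Grik WT (-1.64 ± 0.27, adjusted p = 6.4e-05, and -0.37 ± 0.32, adjusted p = 0.469, with the covariate described below). The other 9 markers summed to 25.5 to 39.8 CPM and 67.8 to 79.5 CPM. Of these lists, 13 of 14 and 8 of 10 markers were called higher in Grik WT. Of 10 microglial markers 5 were called higher in Grik WT, a count that ran from 1 without Grik WT replicate 6 to 8 without Grik WT replicate 3 or CamK WT replicate 2 (3 without CamK WT replicates 4 or 5). Of 10 vascular markers 6 were called higher in Grik WT. Microglial markers summed to 8.17 to 13.2 CPM and 13.5 to 36.5 CPM, and vascular markers to 16.3 to 18.6 CPM and 34.9 to 47.6 CPM. Most of the vascular sum came from Rgs5, a pericyte gene (-1.43 ± 0.24, adjusted p = 5.02e-05, and -0.68 ± 0.39, adjusted p = 0.246, with that covariate). The other 9 markers summed to 5.87 to 6.36 CPM and 10.8 to 15.3 CPM. Which cells the Slc1a2 and Rgs5 RNA came from was not tested. Interneuron markers (94.5 to 259 CPM and 144 to 203 CPM) and dentate granule cell markers (384 to 858 CPM and 560.4 to 602 CPM) overlapped between the groups. The lowest dentate sum was that of CamK WT replicate 4 and the highest that of CamK WT replicate 2. All 6 mossy cell markers were called higher in Grik WT (3 with the covariate described next), led by Calb2, and 6 of 8 markers of subiculum and deep cortex were called higher in CamK WT, led by Tshz2 at 115 ± 9.79 CPM in CamK WT and 6.86 ± 2.87 CPM in Grik WT. Tle4, a transcriptional corepressor and the most abundant of that list, was called higher in Grik WT, at 56.02 ± 4.52 CPM in CamK WT and 104 ± 7.87 CPM in Grik WT (-0.89 ± 0.09, adjusted p = 1.98e-08). With the mean log2 level of the astrocyte, oligodendrocyte, microglial and vascular markers as a covariate, fewer genes were called, and its values stand beside each list count that it moves by more than 1.5 times and each named gene whose call it ends, called "the covariate" from here on. That score itself differed between the populations, so the covariate also removes part of the contrast, and the part of non-neuronal RNA in single genes was not tested. Reads of the Y-linked gene Ddx3y were at or below 0.0219 CPM in CamK WT replicate 5 and Grik WT replicates 3 and 4 and at 39.8 to 49.2 CPM in the other 5 libraries, so both groups held both kinds of library.

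Across all genes, 7912 of 18823 were called at an adjusted p under 0.05 (42.0%), of which 3938 (20.9%) were higher in CamK WT and 3974 (21.1%) higher in Grik WT. Of the called genes, 3618 differed by less than 1.5-fold, 1523 by 1.5 to 2-fold, 1581 by 2 to 4-fold, 709 by 4 to 8-fold and 481 by more than 8-fold. Tested against a minimum fold of 2 with edgeR's glmTreat, 1417 genes (7.53%) were called, 724 (3.85%) higher in CamK WT and 693 (3.68%) higher in Grik WT. The 4 libraries of each group did not overlap for 7214 genes (38.3%), which include 6589 of the called genes. These shares over all genes are the background for each list count in this text. Genes named for their folds were chosen among called genes, so their lack of overlap largely follows from that choice. With the covariate 3835 genes were called, 2012 higher in CamK WT and 1823 higher in Grik WT, and 704 were called beyond 2-fold, 512 higher in CamK WT and 192 higher in Grik WT. The first principal component of log2 CPM over the 8 libraries held 60.5% of the variance and separated the populations.

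**Figure D2:**
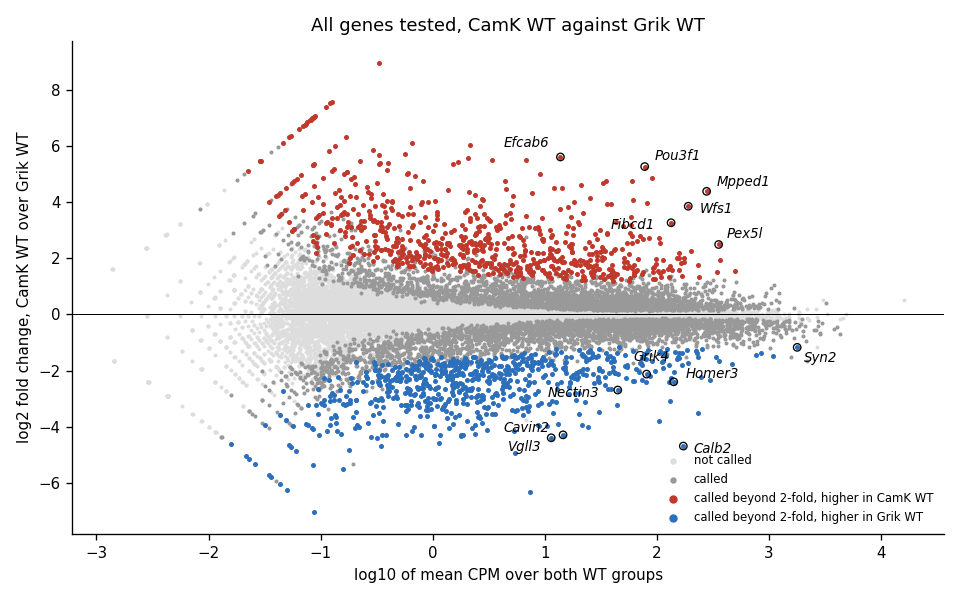
Log2 fold change (CamK WT over Grik WT) against the log10 of mean CPM over both WT groups for each gene tested that has reads in these libraries. Red and blue points are the 724 and 693 genes called beyond 2-fold, and circles mark named genes such as Pou3f1 and Calb2.

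The largest changes toward CamK WT were taken among protein-coding genes called beyond 2-fold, with at least 10 CPM in the higher group and no overlap between the groups. Efcab6, an EF-hand protein, was at 23.6, 21.8, 37.01 and 25.7 CPM in CamK WT replicates 2 to 5 and 0.401, 0.695, 0.504 and 0.621 CPM in Grik WT replicates 3 to 6, and led them with a log2 fold change of 5.60 ± 0.26 (adjusted p = 9.9e-14). No CamK library fell within the range of the Grik libraries for any of the 12 genes, since the rule requires it. This lack of overlap is thus no separate result (38.3% of all genes tested did not overlap). Ccn3, a secreted matricellular protein, was at 177 ± 13.4 CPM in CamK WT and 6.13 ± 2.08 CPM in Grik WT (SD, n = 4 each, log2 fold change 4.85 ± 0.36, adjusted p = 2.73e-09). Igfbp4, which binds insulin-like growth factors, was at 116 ± 39.7 CPM in CamK WT and 4.29 ± 1.32 CPM in Grik WT (log2 fold change 4.75 ± 0.25, adjusted p = 5.56e-12). Lefty1, a secreted antagonist of nodal signalling, was at 27.4 ± 6.42 CPM in CamK WT and 1.204 ± 0.213 CPM in Grik WT (log2 fold change 4.51 ± 0.22, adjusted p = 9.9e-14). Mpped1, a metallophosphoesterase of cortical pyramidal cells, was at 493, 476, 626 and 527 CPM in CamK WT replicates 2 to 5 and 17.1, 28.5, 22.7 and 33.5 CPM in Grik WT replicates 3 to 6. Its log2 fold change was 4.38 ± 0.26 (adjusted p = 6.91e-11). Ankrd63, Tox2, Htr1b, C130074G19Rik and Pou3f1 were also among them, at log2 fold changes of 4.74, 4.62, 4.49, 4.32 and 5.26.

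Among the 12 largest changes toward Grik WT by the same rule were the oligodendrocyte genes Olig2, Mag, Bcas1, Mog, Olig1, Sox10, Ermn and Cnp. Their log2 fold changes were -3.79 to -4.14. All of them but Bcas1 and Sox10 are part of the oligodendrocyte sum given above, so their direction is no separate result. The other 4 of the 12 were Vip, Calb2, Vgll3 and Cavin2. Calb2, the calcium-binding protein calretinin, was at 15.8, 12.8, 7.48 and 15.6 CPM in CamK WT replicates 2 to 5 and 311, 328, 339 and 347 CPM in Grik WT replicates 3 to 6. All Grik libraries lay far above all CamK libraries, with a log2 fold change of -4.68 ± 0.34 (adjusted p = 2.03e-09). Calretinin is known from mossy cells of the mouse dentate hilus. Drd2 and Calcrl, further defining mossy cell genes, were at 0.821 ± 0.562 CPM in CamK WT and 2.100 ± 0.4098 CPM in Grik WT and at 0.2901 ± 0.0729 CPM in CamK WT and 2.46 ± 0.355 CPM in Grik WT, both called higher in Grik WT (adjusted p = 0.00159 and 1.68e-08, and for Drd2 0.263 with the covariate, at a log2 fold change of -0.96 ± 0.57) and named here after their values were seen. Cavin2, a coat protein of caveolae, was at 1.72, 1.13, 1.42 and 1.42 CPM in CamK WT replicates 2 to 5 and 25.9, 28.3, 30.7 and 25.8 CPM in Grik WT replicates 3 to 6, which gives a log2 fold change of -4.28 ± 0.13 (adjusted p = 6.77e-17). Vgll3, a cofactor of TEAD transcription factors, was at 1.09, 1.26, 0.791 and 1.02 CPM in CamK WT replicates 2 to 5 and 22.4, 21.96, 21.3 and 21.4 CPM in Grik WT replicates 3 to 6, with a log2 fold change of -4.39 ± 0.20 (adjusted p = 2.17e-14). For Cavin2 and Vgll3 both groups were tight and far apart. Their calls remained with the covariate, but so did those of all the other genes of these 12, the oligodendrocyte genes included. Vip, a neuropeptide of a class of interneurons, was at 0.396, 0.454, 0.136 and 0.405 CPM in CamK WT replicates 2 to 5 and 6.81, 11.5, 6.79 and 17.1 CPM in Grik WT replicates 3 to 6 (log2 fold change -4.91 ± 0.61, adjusted p = 2.01e-06). Most genes of the interneuron list were not called, the rest were called in both directions, and its sums overlapped between the groups as given above. Of the CA3 list, Nectin3, an adhesion molecule of the mossy fibre synapse, was at 14.9, 12.02, 9.54 and 11.7 CPM in CamK WT replicates 2 to 5 and 86.9, 72.2, 69.4 and 81.7 CPM in Grik WT replicates 3 to 6, with a log2 fold change of -2.69 ± 0.15 (adjusted p = 1.63e-12). Iyd, an iodotyrosine deiodinase used as a CA3 marker, was at 3.897 ± 0.893 CPM in CamK WT and 21.9 ± 2.92 CPM in Grik WT (log2 fold change -2.49 ± 0.26, adjusted p = 1.04e-07).

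Of 47 transcription factors of forebrain neurons, 22 were called higher in CamK WT, 12 higher in Grik WT and 13 were not called, with a median log2 fold change of 0.24 beside 0.01 over all genes. Beyond 2-fold, 11 were higher in CamK WT and 2 in Grik WT. With the covariate 18 and 5 were called. Pou3f2, a relative of Pou3f1, was higher in CamK WT as well (8.25 ± 0.935 CPM in CamK WT and 0.714 ± 0.198 CPM in Grik WT, log2 fold change 3.53 ± 0.31, adjusted p = 3.52e-09). Plagl1, a zinc finger protein of the CA3 list, was at 10.7, 12.97, 8.505 and 8.48 CPM in CamK WT replicates 2 to 5 and 60.9, 64.9, 51.7 and 54.96 CPM in Grik WT replicates 3 to 6. All Grik libraries lay above all CamK libraries, with a log2 fold change of -2.52 ± 0.15 (adjusted p = 2.19e-12). St18, also called higher in Grik WT (-1.97 ± 0.50, adjusted p = 0.00394), was not called with the covariate, at a fold of similar size with a larger SE (-2.12 ± 0.90, adjusted p = 0.113). The zinc finger orphan receptors of the NR4A family, which activity induces, split by population. Nr4a1 was at 103, 94.97, 145 and 87.5 CPM in CamK WT replicates 2 to 5 and 45.05, 47.7, 41.2 and 28.6 CPM in Grik WT replicates 3 to 6, and Nr4a2 at 124 ± 20.2 CPM in CamK WT and 46.9 ± 5.74 CPM in Grik WT. Both were called higher in CamK WT, at log2 fold changes of 1.41 ± 0.32 and 1.41 ± 0.18 (adjusted p = 0.0017 and 1.65e-06). Nr4a3 was at 131, 127, 155 and 112 CPM in CamK WT replicates 2 to 5 and 356, 345, 271 and 290.0 CPM in Grik WT replicates 3 to 6, called higher in Grik WT at -1.27 ± 0.24 (adjusted p = 0.000315). None of the 3 genes overlapped between the groups, and neither did 38.3% of all genes tested. With the covariate Nr4a1 and Nr4a3 were not called, at folds of similar size with larger SEs (1.73 ± 0.62 and -1.17 ± 0.46, adjusted p = 0.0566 and 0.0845). Among 23 activity-regulated genes, 10 were called higher in CamK WT and 2, Nr4a3 and Bdnf, higher in Grik WT, and none passed beyond 2-fold. With the covariate only 2 of them were called, both higher in CamK WT. Bdnf, the growth factor of mossy fibre synapses, was at 55.6 ± 4.24 CPM in CamK WT and 90.8 ± 13.1 CPM in Grik WT (log2 fold change -0.71 ± 0.18, adjusted p = 0.00343, and -0.11 ± 0.31 with an adjusted p of 0.852 under the covariate).

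Motif letters of the POU, MEF2 and NR4A factor families were searched on both strands in the 250 bases before each RefSeq gene start (GRCm38.p6). Not every gene had a promoter to search, and some had more than 1. Promoters were matched for 411 of 572 genes higher in CamK WT beyond 2-fold, 501 of 649 higher in Grik WT and 11901 of 15301 tested protein-coding genes. The octamer ATGCAAAT of POU factors was found in 1.12% of 534 promoters of the first set, in 1.40% of 642 promoters of the second and in 1.20% of 15201 promoters of the third. For CTA and TAG separated by any 4 bases, a loose form of the MEF2 motif that reads the same on both strands, the shares were 1.87%, 2.80% and 2.76%, and for the NR4A motif AAAGGTCA they were 1.12%, 0.935% and 0.987%. The shares in the CamK and Grik sets rest on 6 to 18 promoters with a match and were not tested against each other. Of the 27 genes selected by their marker role or their fold, 17 had a promoter in the table and 4 held a match. The matches of Tox2 (higher in CamK WT) and Cavin2 (higher in Grik WT) are printed to show what a match looks like in a gene of each direction. They read 5′ to 3′ on the plus strand with the motif in capitals, at chr2:163202877-163202962 and chr1:51288936-51289025:
Tox2: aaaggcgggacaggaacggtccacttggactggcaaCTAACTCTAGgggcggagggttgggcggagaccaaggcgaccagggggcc
Cavin2: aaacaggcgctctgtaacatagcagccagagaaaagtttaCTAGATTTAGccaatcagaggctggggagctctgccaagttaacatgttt
A match is a string of letters and not a measured binding site.

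Of 17 AMPA receptor genes, 9 were called higher in CamK WT and 3 in Grik WT. Gria1, the pore subunit with the highest CPM, was at 839.8 ± 45.3 CPM in CamK WT and 747 ± 52.2 CPM in Grik WT, the groups overlapped, and it was not called (adjusted p = 0.143). Auxiliary subunits, which set gating and trafficking, were called in both directions. Gsg1l was at 28.8, 32.3, 28.8 and 35.9 CPM in CamK WT replicates 2 to 5 and 3.02, 5.42, 3.41 and 5.72 CPM in Grik WT replicates 3 to 6 (log2 fold change 2.84 ± 0.23, adjusted p = 2.66e-09). Cnih3 was at 86.9, 88.7, 82.3 and 83.6 CPM in CamK WT replicates 2 to 5 and 23.7, 22.4, 23.7 and 24.3 CPM in Grik WT replicates 3 to 6 (log2 fold change 1.86 ± 0.09, adjusted p = 4.33e-14). Of the TARPs, Cacng3 was higher in CamK WT (1.41 ± 0.09, adjusted p = 6.63e-12) and Cacng2, or stargazin, higher in Grik WT (-0.77 ± 0.10, adjusted p = 1.48e-06), as was the auxiliary subunit Shisa6 (-1.06 ± 0.13, adjusted p = 3.61e-07). No library of one group fell within the other for any of these 5 auxiliary genes, which were chosen among the called genes of their list. Over all genes tested 38.3% did not overlap. Of 6 NMDA receptor genes only Grin3a was called (2 genes with the covariate), at 27.1, 30.2, 29.9 and 28.2 CPM in CamK WT replicates 2 to 5 and 6.32, 7.29, 7.89 and 8.47 CPM in Grik WT replicates 3 to 6 and a log2 fold change of 1.94 ± 0.13 (adjusted p = 3.68e-11). Grin2b, the member with the highest CPM, was at 684 ± 96.5 CPM in CamK WT and 634 ± 84.3 CPM in Grik WT (adjusted p = 0.592). Of 7 kainate receptor genes, 4 were called higher in Grik WT and 2 in CamK WT. Grik4 was joined by its auxiliary subunits Neto1 and Neto2 (-1.53 ± 0.09 and -0.96 ± 0.11, adjusted p = 2.77e-12 and 1.87e-07), while Grik3 was at 32.00 ± 6.54 CPM in CamK WT and 10.97 ± 1.05 CPM in Grik WT with a log2 fold change of 1.55 ± 0.13 (adjusted p = 1.38e-09).

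Metabotropic glutamate receptors divided by member: Grm4, Grm8 and Grm2, which lower cyclic AMP, were called higher in CamK WT at log2 fold changes of 1.71 ± 0.14, 1.58 ± 0.15 and 1.45 ± 0.17 (adjusted p = 6.67e-10, 6.14e-09 and 2.96e-07). Grm7, another receptor that lowers cyclic AMP, was called higher in Grik WT (-0.72 ± 0.09, adjusted p = 2.26e-07). Grm5, the member with the highest CPM, was at 160.3 ± 14.8 CPM in CamK WT and 159 ± 6.202 CPM in Grik WT and was not called (adjusted p = 0.952). Of 14 GABA receptor genes, 8 were called higher in CamK WT and 2 in Grik WT. Gabra3 and Gabrd, the latter a subunit of extrasynaptic receptors, were higher in CamK WT (2.22 ± 0.11 and 1.85 ± 0.18, adjusted p = 5.2e-14 and 1.08e-08). The subunits of the metabotropic GABA-B receptor went opposite ways, Gabbr1 at 0.31 ± 0.08 and Gabbr2 at -0.52 ± 0.08 (adjusted p = 0.00219 and 7.9e-06). Gabbr2 and Gabrb1 were the 2 genes called higher in Grik WT, and neither was called with the covariate (-0.23 ± 0.13 and -0.43 ± 0.25, adjusted p = 0.221 and 0.248).

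**Figure D3:**
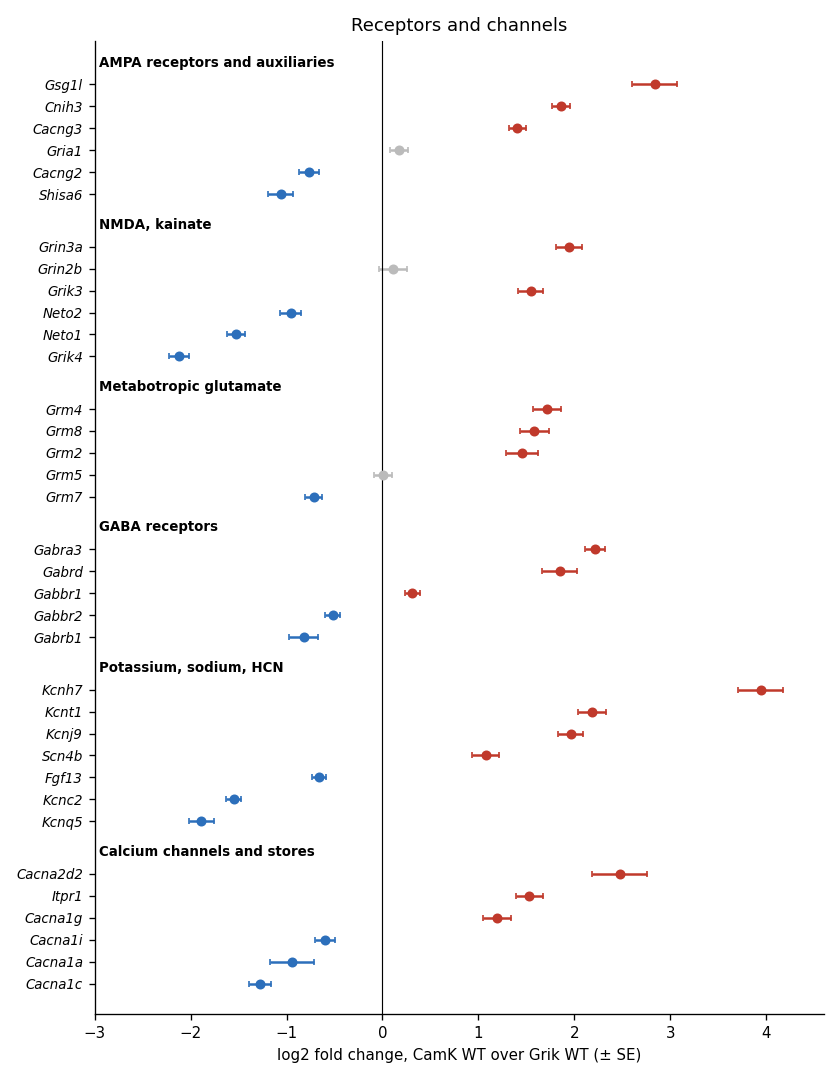
Log2 fold change (CamK WT over Grik WT) with its SE for receptor and channel genes named by the rule, in red where called higher in CamK WT, in blue where called higher in Grik WT and in grey where not called. Gsg1l, Kcnh7 and Cacna2d2 lie far to the CamK side, Grik4 and Kcnq5 to the Grik side, and Gria1, Grin2b and Grm5 at about 0.

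Of 61 potassium channel genes, 27 were called higher in CamK WT and 22 higher in Grik WT, beside 20.9% and 21.1% of all genes tested, with a median log2 fold change of 0.15. With the covariate 26 and 11 of them were called, beside 2012 and 1823 over all genes. Kcnh7, an ERG-type channel, was at 70.5, 67.6, 68.4 and 61.9 CPM in CamK WT replicates 2 to 5 and 4.51, 4.45, 4.304 and 4.22 CPM in Grik WT replicates 3 to 6. The groups were tight and lay far apart, with a log2 fold change of 3.94 ± 0.24 (adjusted p = 3.19e-11). Kcnt1, a sodium-activated channel, and Kcnj9, a G-protein-gated inward rectifier, were higher in CamK WT (2.18 ± 0.15 and 1.96 ± 0.13, adjusted p = 1.39e-11 and 2.22e-11). Kcnq5, an M-current subunit, was at 47.5, 47.96, 43.4 and 52.7 CPM in CamK WT replicates 2 to 5 and 174, 167, 194 and 173 CPM in Grik WT replicates 3 to 6, the opposite way (-1.89 ± 0.13, adjusted p = 1.93e-11). Kcnc2, a fast delayed rectifier of the Kv3 family, was at 38.9, 39.3, 33.9 and 37.01 CPM in CamK WT replicates 2 to 5 and 115, 107, 113 and 102 CPM in Grik WT replicates 3 to 6 (-1.55 ± 0.07, adjusted p = 4.25e-14). Kcnj10 had the largest fold toward Grik WT (-2.72 ± 0.35, adjusted p = 2.56e-06), and is a channel of astrocytes and oligodendrocytes, whose markers were higher in those libraries. Its call remained with the covariate, and the source of its RNA was not tested. Of 16 sodium and HCN channel genes, 6 were called higher in CamK WT and 4 in Grik WT (5 and 1 with the covariate). Pex5l encodes TRIP8b, which carries HCN channels to distal dendrites. It was at 578, 521, 735 and 581 CPM in CamK WT replicates 2 to 5 and 94.7, 115, 105 and 115 CPM in Grik WT replicates 3 to 6, a log2 fold change of 2.49 ± 0.12 (adjusted p = 2.74e-14). Fgf13, which modulates sodium channels, was higher in Grik WT (-0.66 ± 0.08, adjusted p = 1.45e-07). Scn2a and Scn8a, the pore subunits, were higher in Grik WT by less (-0.34 ± 0.09 and -0.33 ± 0.09, adjusted p = 0.00402 and 0.00581), and were not called with the covariate (-0.14 ± 0.16 and -0.04 ± 0.16, adjusted p = 0.593 and 0.888).

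Of 20 genes of calcium channels and stores, 9 were called higher in Grik WT and 5 in CamK WT, but 1 and 6 with the covariate. Cacna1c, an L-type pore subunit, was at 57.8, 57.1, 38.6 and 42.5 CPM in CamK WT replicates 2 to 5 and 116, 129, 131 and 97.04 CPM in Grik WT replicates 3 to 6. Its groups did not overlap, and its log2 fold change was -1.27 ± 0.11 (adjusted p = 2.2e-09). Cacna1g, a T-type pore subunit, was at 29.3 ± 0.364 CPM in CamK WT and 12.8 ± 2.84 CPM in Grik WT and higher in CamK WT (1.19 ± 0.15, adjusted p = 5.04e-07). Cacna1a and Cacna1i were called higher in Grik WT (-0.95 and -0.60) but not with the covariate (-0.82 ± 0.43 and -0.33 ± 0.18, adjusted p = 0.206 and 0.209). Itpr1, the calcium release channel of internal stores, was at 574, 529.6, 478 and 481 CPM in CamK WT replicates 2 to 5 and 181, 182, 183 and 169 CPM in Grik WT replicates 3 to 6. It was higher in CamK WT, at 1.53 ± 0.14 (adjusted p = 7.85e-09). Itpka, the kinase that phosphorylates inositol trisphosphate, the ligand of that channel, was likewise higher in CamK WT (584 ± 142 CPM in CamK WT and 152 ± 19.6 CPM in Grik WT, 1.94 ± 0.19, adjusted p = 7.13e-08). Among 20 calcium-binding proteins, 6 were called higher in CamK WT and 8 in Grik WT, and 2 each with the covariate. Calb1, calbindin, was at 252, 221, 162 and 178 CPM in CamK WT replicates 2 to 5 and 75.9, 71.6, 56.96 and 68.9 CPM in Grik WT replicates 3 to 6 (1.57 ± 0.15, adjusted p = 1.19e-08), and so ran opposite to Calb2. Camk2d, a subunit of the same kinase as Camk2a, was at 112 ± 25.8 CPM in CamK WT and 39.3 ± 4.42 CPM in Grik WT (1.52 ± 0.16, adjusted p = 4.77e-08). Adcy8, a calcium-stimulated adenylyl cyclase, was at 27.1 ± 5.13 CPM in CamK WT and 3.65 ± 0.469 CPM in Grik WT (2.89 ± 0.18, adjusted p = 5.67e-12). Prkca and Dgkb, a protein kinase C and a diacylglycerol kinase, were higher in Grik WT (-1.06 ± 0.12 and -1.10 ± 0.14, adjusted p = 6.48e-08 and 8.43e-07). Over the 36 kinases, phosphatases and cyclic nucleotide enzymes, 14 were called higher in CamK WT and 12 in Grik WT (11 and 8 with the covariate).

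The presynaptic lists held calls in both directions. Of 41 genes of vesicle release, 20 were called higher in Grik WT and 14 in CamK WT (11 and 12 with the covariate), with a median log2 fold change of -0.07. Members of the release machinery were among the 8 largest differences in mean CPM toward Grik WT over called protein-coding genes whose groups did not overlap. Snap25, a SNARE protein, was at 3293, 3454, 3211 and 3213 CPM in CamK WT replicates 2 to 5 and 6028, 5164, 4921 and 5028 CPM in Grik WT replicates 3 to 6 (-0.68 ± 0.07, adjusted p = 4.45e-08). Syn2, a synapsin of the vesicle surface, was at 1135, 1111, 1059.6 and 1090.2 CPM in CamK WT replicates 2 to 5 and 2548, 2495, 2373 and 2467 CPM in Grik WT replicates 3 to 6 (-1.17 ± 0.07, adjusted p = 1.61e-12). Nsf, which takes SNARE complexes apart, and Dnm1, the dynamin of vesicle endocytosis, were higher in Grik WT by -0.69 ± 0.07 and -0.65 ± 0.08 (adjusted p = 6.5e-09 and 2.13e-07). That these 4 genes did not overlap between the groups was a condition of their choice (38.3% of all genes tested did not overlap). Bsn, the active zone scaffold bassoon, followed (-1.14 ± 0.10, adjusted p = 8.99e-10). Some members were far higher in CamK WT: Rims3 was at 98.5, 102, 114 and 113 CPM in CamK WT replicates 2 to 5 and 5.29, 10.6, 8.196 and 14.6 CPM in Grik WT replicates 3 to 6 (3.47 ± 0.25, adjusted p = 8.64e-10). Slc17a6, the glutamate transporter VGLUT2, was at 31.9, 29.2, 33.5 and 30.3 CPM in CamK WT replicates 2 to 5 and 1.83, 2.73, 3.23 and 3.36 CPM in Grik WT replicates 3 to 6 (3.48 ± 0.37, adjusted p = 3.2e-07). VGLUT2 is known from subiculum and some cortical cells as well. Of 8 markers of subiculum and deep cortex, 6 were called higher in CamK WT and 1, Tle4, higher in Grik WT, as given above. The source of the Slc17a6 RNA was not tested. Of 27 neuropeptides and growth factors, 11 were called higher in Grik WT and 4 in CamK WT (4 and 3 with the covariate). Chgb, the dense-core vesicle protein chromogranin B, was at 460.3, 432, 432 and 569.6 CPM in CamK WT replicates 2 to 5 and 1113, 1183, 1323 and 1292 CPM in Grik WT replicates 3 to 6 (-1.37 ± 0.11, adjusted p = 1.94e-10). Fgf1 was at 3.53 ± 1.77 CPM in CamK WT and 21.97 ± 1.996 CPM in Grik WT (-2.64 ± 0.23, adjusted p = 1.17e-08). The peptide precursors Penk and Nts were higher in CamK WT (2.22 ± 0.28 and 3.51 ± 0.81, adjusted p = 1.67e-06 and 0.00185).

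On the postsynaptic side, 11 of 22 scaffold genes were called higher in CamK WT and 2 in Grik WT (7 and 2 with the covariate). The Homer family, which links metabotropic receptors to calcium stores, split by member. Homer2 was at 93.8, 95.3, 105 and 93.2 CPM in CamK WT replicates 2 to 5 and 34.1, 29.4, 32.5 and 36.1 CPM in Grik WT replicates 3 to 6 (1.55 ± 0.09, adjusted p = 1.2e-12). Homer3 was at 44.9, 38.8, 41.7 and 55.3 CPM in CamK WT replicates 2 to 5 and 213, 235, 263 and 239 CPM in Grik WT replicates 3 to 6 (-2.39 ± 0.18, adjusted p = 6.26e-10). Both members were separate between the groups and ran in opposite directions. Dlg4, the scaffold PSD95, was at 1351 ± 146 CPM in CamK WT and 940.3 ± 64.6 CPM in Grik WT (0.52 ± 0.07, adjusted p = 1.37e-06). Ddn, the dendritic protein dendrin, was at 1373 ± 29.99 CPM in CamK WT and 722 ± 31.2 CPM in Grik WT (0.93 ± 0.10, adjusted p = 3.15e-08). Both were higher in CamK WT.

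Synaptic adhesion genes were called at 18 of 59 higher in CamK WT and 16 higher in Grik WT, and cadherins at 8 and 10 of 26 (with the covariate 15 and 9, and 7 and 6). Adgrl2, a latrophilin of CA1 dendrites, was at 44.2, 47.7, 54.6 and 43.5 CPM in CamK WT replicates 2 to 5 and 2.37, 2.71, 2.59 and 3.09 CPM in Grik WT replicates 3 to 6 (4.14 ± 0.18, adjusted p = 1.77e-14). The cerebellins Cbln4 and Cbln1 were also higher in CamK WT (3.75 ± 0.55 and 2.28 ± 0.28, adjusted p = 2.08e-05 and 8.49e-07). The neuronal pentraxins, which cluster AMPA receptors, split by member. Nptxr was at 549, 537, 568 and 644 CPM in CamK WT replicates 2 to 5 and 1434, 1499.9, 1826 and 1599 CPM in Grik WT replicates 3 to 6, higher in Grik WT (-1.47 ± 0.11, adjusted p = 1.9e-10). Nptx1 was at 418 ± 65.9 CPM in CamK WT and 1123 ± 124 CPM in Grik WT, also higher in Grik WT (-1.42 ± 0.15, adjusted p = 9.04e-08). Nptx2, named here after its values were seen, was at 43.2 ± 6.56 CPM in CamK WT and 30.4 ± 3.67 CPM in Grik WT and called higher in CamK WT (0.51 ± 0.16, adjusted p = 0.0119, and 0.0549 with the replicate block). Cdh9, a cadherin of mossy fibre to CA3 contacts, was at 17.7, 13.9, 8.98 and 10.5 CPM in CamK WT replicates 2 to 5 and 50.8, 45.6, 51.1 and 43.7 CPM in Grik WT replicates 3 to 6 (-1.91 ± 0.15, adjusted p = 6.81e-10). The groups did not overlap for any of these genes (nor for 38.3% of all genes tested). Cdh6, Cdh20 and Cdh22 were higher in CamK WT (3.34, 2.67 and 1.69, adjusted p = 6.39e-10, 7.53e-11 and 5.21e-11), and Cdh24 higher in Grik WT (-1.43, adjusted p = 4.3e-07).

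Axon guidance genes were called at 29 of 55 higher in Grik WT and 14 higher in CamK WT, with a median log2 fold change of -0.34, and 10 and 6 of them passed beyond 2-fold. With the covariate the counts were 11 higher in Grik WT and 17 in CamK WT. Slit2, a repellent ligand, was at 19.1, 20.5, 14.8 and 17.9 CPM in CamK WT replicates 2 to 5 and 92.7, 87.6, 96.7 and 72.4 CPM in Grik WT replicates 3 to 6 (-2.27 ± 0.18, adjusted p = 6.48e-10). Nrp2, a receptor of class 3 semaphorins, was at 34.3, 34.8, 24.3 and 30.98 CPM in CamK WT replicates 2 to 5 and 131, 146, 163 and 125 CPM in Grik WT replicates 3 to 6 (-2.18 ± 0.14, adjusted p = 8.32e-12). One of the ligands of that class, Sema3c, was also higher in Grik WT (2.29 ± 0.6503 CPM in CamK WT and 12.2 ± 0.999 CPM in Grik WT, -2.41 ± 0.20, adjusted p = 4.64e-10). Plxnd1, a receptor of another semaphorin, ran the other way at 29.3, 31.5, 36.6 and 22.3 CPM in CamK WT replicates 2 to 5 and 1.31, 2.596, 1.73 and 2.73 CPM in Grik WT replicates 3 to 6 (3.84 ± 0.38, adjusted p = 9.6e-08). Ntng1, a membrane-anchored netrin, and Efnb2, an ephrin, were higher in CamK WT (1.70 ± 0.17 and 1.55 ± 0.10, adjusted p = 4.28e-08 and 8.2e-12). Epha4, the guidance gene with the highest CPM, was called higher in Grik WT (-0.77 ± 0.11) but not with the covariate (-0.29 ± 0.17, adjusted p = 0.27). In the extracellular matrix, 11 of 23 genes were called higher in Grik WT and 6 in CamK WT, but 2 and 6 with the covariate, and 7 were higher in Grik WT without CamK WT replicate 4. Dcn, the proteoglycan decorin, was at 41.6, 49.7, 29.02 and 43.5 CPM in CamK WT replicates 2 to 5 and 2.496, 3.41, 2.92 and 4.51 CPM in Grik WT replicates 3 to 6 (3.62 ± 0.33, adjusted p = 3.18e-08). Hapln4, a link protein of perineuronal nets, was at 72.96 ± 10.2 CPM in CamK WT and 171 ± 23.6 CPM in Grik WT (-1.23 ± 0.10, adjusted p = 1.83e-10).

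Receptors for neuromodulators were called at 22 of 50 higher in CamK WT and 12 in Grik WT, with a median log2 fold change of 0.58, and 12 and 4 passed beyond 2-fold. With the covariate 19 and 7 were called. Htr1b, an inhibitory serotonin receptor, was at 22.3, 21.7, 25.7 and 22.4 CPM in CamK WT replicates 2 to 5 and 0.664, 1.18, 0.916 and 1.34 CPM in Grik WT replicates 3 to 6 (4.49 ± 0.27, adjusted p = 8.72e-12). Htr5b, another serotonin receptor, was at 9.91 ± 2.56 CPM in CamK WT and 0.529 ± 0.211 CPM in Grik WT (4.23 ± 0.34, adjusted p = 5.9e-10). The nicotinic subunits split: Chrna5 was at 8.53, 7.498, 9.08 and 9.42 CPM in CamK WT replicates 2 to 5 and 0.218, 0.313, 0.263 and 0.762 CPM in Grik WT replicates 3 to 6 (4.47 ± 0.32, adjusted p = 4.67e-11), while Chrna7 was higher in Grik WT (-1.25 ± 0.11, adjusted p = 1.08e-09). Npy2r, the presynaptic neuropeptide Y receptor, was at 24.98, 21.5, 19.9 and 25.2 CPM in CamK WT replicates 2 to 5 and 76.02, 71.2, 87.7 and 88.3 CPM in Grik WT replicates 3 to 6 (-1.82 ± 0.11, adjusted p = 2.02e-12). Each of these 5 receptors, chosen among the called genes of the list, was separate between the groups, as were 38.3% of all genes tested. Of the 50 genes, 16 were not called. Adora1, an adenosine receptor and the one with the highest CPM of the list, was called higher in Grik WT (-0.75 ± 0.12, adjusted p = 1.92e-05), but not with the covariate (-0.20 ± 0.18, adjusted p = 0.476).

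Splicing regulators of the RNA-binding type were called at 8 of 25 higher in CamK WT and 6 in Grik WT (4 and 5 with the covariate). Elavl2, an RNA-binding protein of the neuronal Hu family, was at 54.98, 56.1, 50.98 and 57.6 CPM in CamK WT replicates 2 to 5 and 254, 225, 211 and 224 CPM in Grik WT replicates 3 to 6. No group overlapped the other, with a log2 fold change of -2.06 ± 0.10 (adjusted p = 6.16e-14). Khdrbs2 (SLM1), the closest relative of the targeted gene, was at 13.4, 15.01, 13.9 and 13.6 CPM in CamK WT replicates 2 to 5 and 5.21, 4.45, 3.88 and 5.24 CPM in Grik WT replicates 3 to 6 and higher in CamK WT (1.58 ± 0.12, adjusted p = 2.44e-10). Nova1 was also higher in CamK WT (1.09 ± 0.09, adjusted p = 7.94e-10), and Qk, which is abundant in glia, higher in Grik WT (-0.90 ± 0.11, adjusted p = 3.81e-07). Genes of oxidative phosphorylation and cytosolic ribosomal protein genes moved by little, with median log2 fold changes of 0.17 and 0.14 and none beyond 2-fold. Of 83 genes of oxidative phosphorylation 30 were called higher in CamK WT and 8 in Grik WT (45.8% in either direction). Of 81 cytosolic ribosomal protein genes 25 and 2 were called (33.3%). Over all genes tested the shares were 20.9% and 21.1%, or 42.0% in either direction. With the covariate the counts of the 2 lists were 3 and 6, and 3 and 0. Without CamK WT replicate 5, 19 genes of oxidative phosphorylation were higher in CamK WT. Without Grik WT replicate 4, 5 of them were higher in Grik WT. Without CamK WT replicates 4 or 5 or Grik WT replicate 3, 13, 16 and 15 ribosomal protein genes were higher in CamK WT.

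**Figure D4:**
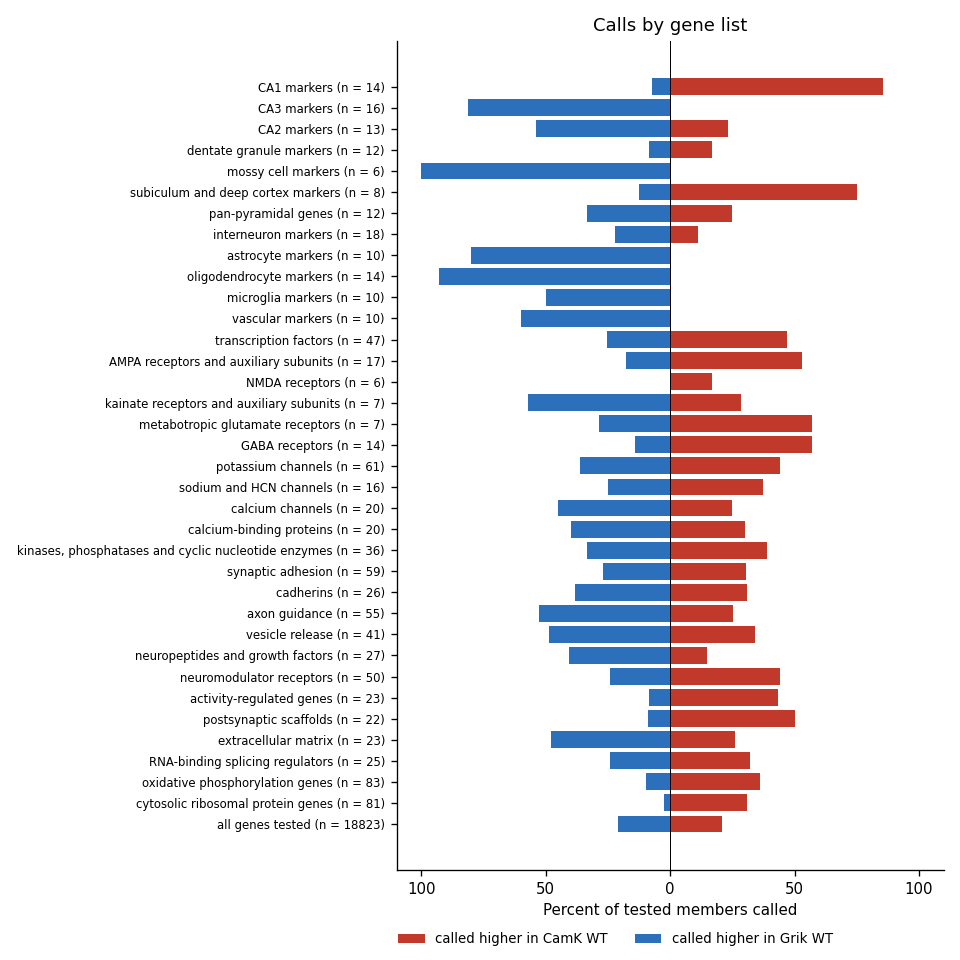
Percent of the tested members of each gene list called higher in CamK WT (red, to the right) and in Grik WT (blue, to the left), with the number tested in brackets and all genes tested in the bottom bar. Oligodendrocyte, astrocyte, microglial and vascular markers are called in the Grik direction only, and most neuronal lists hold calls in both directions.

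Features that the comparison did not use were described over protein-coding genes. The median genomic span was 25.1 kb over the 15302 tested, 20.9 kb for genes higher in CamK WT and 35.4 kb for genes higher in Grik WT. Beyond 2-fold the order was the other way, 37.9 kb for the 572 genes higher in CamK WT and 25.6 kb for the 649 higher in Grik WT. Spans over 100 kb were held by 15.3% of all tested, 27.8% of the first set and 18.5% of the second. Of the long genes named above, Adgrl2 spans chr3:148815583-148990555 and Kcnh7 chr2:62693414-63184287 (GRCm38, GENCODE M21). The spans are descriptions without a test.

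The same contrast was then taken in the 7 libraries labelled cKO, which share no library with the wild-type contrast. The targeted gene, Khdrbs3 (SLM2, chr15:68928420-69101211), was at 367, 356, 413 and 356 CPM in CamK WT replicates 2 to 5 and 327, 330.1, 347 and 338 CPM in Grik WT replicates 3 to 6. In the libraries labelled CamK cKO it was at 294, 291 and 249 CPM (replicates 4 to 6), below all CamK WT libraries, and in those labelled Grik cKO at 412, 439, 396 and 409 CPM (replicates 1 to 4), above all Grik WT libraries. Its level over the whole gene thus goes against the label in the Grik libraries, and since no source used here says which exons the cKO lacks, this count is no check of the deletion. In the libraries labelled cKO, 6716 genes were called between the populations (35.7%), 3280 higher in CamK and 3436 higher in Grik. Of the 7912 genes called in WT, 7711 (97.5%) had the same direction there and 5471 (69.1%) were also called in that direction. Of the 1417 called beyond 2-fold, 1414 (99.8%) had the same direction and 1364 (96.3%) were called. The non-neuronal markers differed in these libraries too, with oligodendrocyte sums of 239.6 to 323 CPM in CamK cKO and 1100.2 to 1514 CPM in Grik cKO and astrocyte sums of 247 to 265 CPM and 608 to 665 CPM, and their part in the shared direction was not tested. One of the 1417 ran the other way and was called, 2610028E06Rik, a lincRNA at or below 0.1203 CPM in each of the 8 CamK and Grik WT libraries, named here after its values were seen. The 4 markers had log2 fold changes of 5.31 (Pou3f1), 4.09 (Wfs1), 3.60 (Fibcd1) and -2.17 (Grik4) in these libraries. Of the genes not called in WT, 68.1% had the same direction. With the covariate 3789 genes were called in the libraries labelled cKO.

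**Figure D5:**
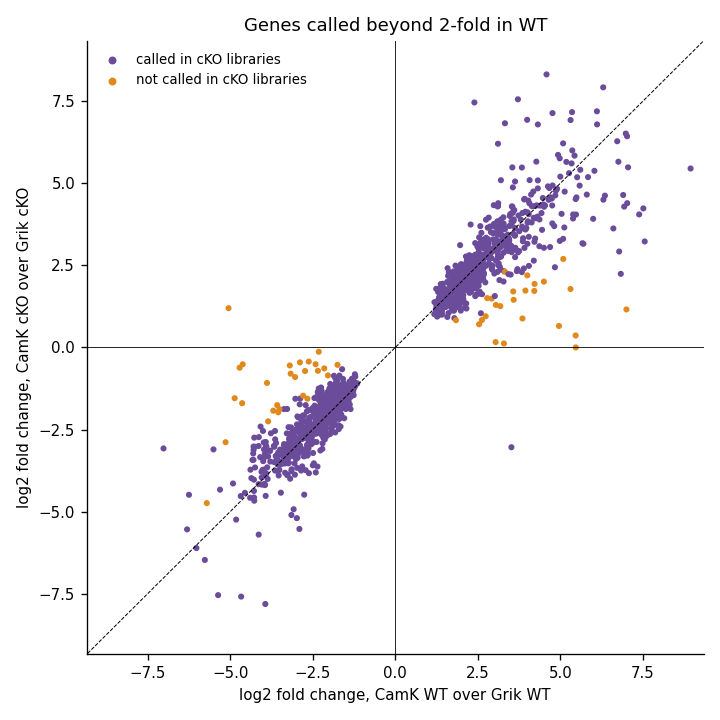
Log2 fold change between the libraries labelled cKO (vertical axis) against that between the WT libraries (horizontal axis) for the 1417 genes called beyond 2-fold in WT, with a dashed line of equal values. Points called in the libraries labelled cKO are purple and the rest orange, and 1414 points lie in the quadrants of equal sign.

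The difference between both contrasts was called for 1 gene (0.00531% of those tested), Khdrbs3 itself. Its log2 fold change was 0.15 ± 0.07 between the WT populations and -0.58 between the populations labelled cKO, a difference of 0.73 ± 0.11 (edgeR adjusted p = 0.0154). Its call was lost with the replicate block (difference 0.71, adjusted p = 0.118), with a covariate for sex genes (0.68, adjusted p = 0.102), without CamK cKO replicate 6 (0.65, adjusted p = 0.114) and without Grik cKO replicate 2 (0.69, adjusted p = 0.0652). At an unadjusted p under 0.05 the difference was met by 1223 genes, and DESeq2 called 11. Khdrbs2 had log2 fold changes of 1.58 and 0.93, and its difference was not called (adjusted p = 0.570).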

How the data were processed

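PolyA RNA was sequenced, per the labels. The authors deposited 1 table of raw counts of reads per Ensembl gene for 23 libraries. Trimmomatic, STAR and the build GRCm38 are named in the submitters' processing notes, and the summary rows have the form of STAR's own read counts, per the file headers. No source used here gives tool versions, the strand setting or the annotation release. The 4 summary rows, 13.6 to 17.0% of reads in the 8 WT libraries, were left out, which left 88356237 to 92153354 gene reads per library, so counting error is small except for genes with few reads. Of 45706 gene IDs, 45143 matched GENCODE M21 (GRCm38).

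Counts were scaled by TMM, filtered by filterByExpr to 18823 genes and fitted with edgeR 4.0.16 (R 4.3.3; glmQLFit robust, glmQLFTest) over all 23 libraries in their 6 groups, which share one estimate of the spread. The threshold was an adjusted p of 0.05, and glmTreat tested a minimum log2 fold of 1. On simulated counts for this contrast (18542 genes), 50 genes at each fold were changed, all at 1 CPM or more. Of those changed by 1.5, 2, 4 and 8-fold, 64, 90, 98 and 100% were called, and 9 of 185 calls (4.86%) were false. Far fewer genes changed there than the 42.0% called in the data. The adjusted p depends on that share, so these rates do not carry over to the data. Named genes were the 4 markers, the 12 largest folds and 8 largest CPM differences in each direction, up to 3 called genes in each direction and the highest CPM in each of 37 lists, and genes whose difference depended on genotype. The largest folds and CPM differences were taken only among called protein-coding genes whose groups did not overlap. Genes named outside this rule are said to be so, and some that it selects are not reported here. The members and lists were chosen with earlier results of these data known. Promoters and their gene starts are from RefSeq (GRCm38.p6). Without strand, reads of overlapping genes cannot be told apart: 43 of the 144 genes named share exon bases with another annotated gene on either strand, among them Pou3f1, Grik4, Homer2 and Homer3, and are uncertain to that extent. Replicates differed beyond sampling noise (chi-square per degree of freedom 22.2 to 81.2 over 12 pairs). Alternatives used other scaling (relative log expression), filters, DESeq2 1.42.0, limma-voom 3.58.1, only the groups compared, a replicate block, covariates for non-neuronal markers and for sex genes, and each library left out in turn.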

Additional observations from a re-analysis of the deposited data

Results flagged for a closer look

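In 362 groups of 4 libraries tested for a single library far from the other 3 (gap over range above 0.829), 15 were found, beside 18.1 that chance gives at 1 in 20. For summed CPM of a list, CamK WT replicate 4 stood at 317 CPM for the kainate receptors (others 339.8 to 341) and Grik WT replicate 5 at 1672 CPM for the cadherins (others 1465 to 1498).

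Among genes in the CamK WT group, replicate 2 stood at 12.7 CPM for Cdh20 (others 17.4 to 18.1) and at 88.2 CPM for Hapln4 (others 66.0 to 69.0). Replicate 3 stood at 73.2 CPM for Grm2 (others 55.6 to 58.5). Replicate 5 stood at 539.9 CPM for Grin2b (others 716 to 743), at 423 CPM for Baiap2 (others 486 to 498) and at 0.0219 CPM for Ddx3y (others 47.2 to 49.2).

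In the Grik WT group, replicate 3 stood at 16.6 CPM for 9330175M20Rik (others 13.7 to 14.1), at 2.99 CPM for Calcrl (others 2.24 to 2.35) and at 11.2 CPM for Efnb2 (others 14.7 to 15.1). Replicate 4 stood at 24.1 CPM for Rgs5 (others 32.3 to 33.4). Replicate 5 stood at 8.17 CPM for Penk (others 5.28 to 5.74). Replicate 6 stood at 169 CPM for Itpr1 (others 181 to 183) and at 4654 CPM for Trp53bp1 (others 2803 to 2856).

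Khdrbs3, the targeted gene, was the only one whose population difference differed between the genotypes in edgeR's test of the difference, at 0.73 on the log2 scale. No gene was called with the replicate block, with the sex-gene covariate, or without CamK cKO replicate 6 or Grik cKO replicate 2, and 2 were called without CamK cKO replicate 5 or CamK WT replicate 4.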

How the results depend on the processing

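The covariate for non-neuronal markers was the one alternative that moved the counts of genes called between the populations by more than 1.5 times: 3835 genes were called (2012 higher in CamK WT, 1823 higher in Grik WT), 704 beyond 2-fold (192 of them higher in Grik WT), and 3789 between the libraries labelled cKO (1998 and 1791). It reversed Slc17a7 (log2 fold change 0.31) and ended the calls of 18 further genes of the 144 named (Slc1a2 and Rgs5 are themselves part of it), all with larger SEs. Of these, Nr4a1, St18, Nr4a3 and Cacna1a had folds of 86.6 to 123% of those without it, and the other 14 of 13.3 to 71.1%. The cause was not tested. Other alternatives gave 7205 to 8284 genes called, 1102 to 1436 beyond 2-fold and 5793 to 8354 between the libraries labelled cKO. Leaving out 1 library gave 7129 to 7772, 1297 to 1393 and 5586 to 6168. The difference between genotypes was called for 11 genes by DESeq2, for 0 with the replicate block and 0 with the sex-gene covariate, and for 0 to 2 with 1 library left out (0 without CamK cKO replicate 6 or Grik cKO replicate 2, 2 without CamK cKO replicate 5 or CamK WT replicate 4). Of the 144 genes named, 122 kept direction and call under every alternative, and Camk2a became called under 4 of them. Among the list counts given, other alternatives moved these by more than 1.5 times: dentate markers higher in CamK WT to 1 (no filter, sex-gene covariate) or 4 (limma-voom), microglial markers higher in Grik WT to 2 (limma-voom, replicate block) or 8 (DESeq2, sex-gene covariate), and oxidative phosphorylation genes higher in Grik WT to 5 (CPM filter) or 4 (only the groups compared). One astrocyte marker was called higher in CamK WT with the replicate block and in the fit of only the groups compared, and 1 microglial marker with DESeq2 and in that fit. Same-numbered libraries of both populations did not deviate together (r = -0.041 to 0.013 over 3 pairs), so the replicate block shares only a number, and it gave 7862 called, 1436 beyond 2-fold and 5793 between the libraries labelled cKO. Small changes could be missed at this depth and number of libraries. In the simulation 64% of 1.5-fold changes were called, but with far fewer changed genes than in these data, so the share missed here is not known.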

Other observations

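CA2 lies between both fields, and its markers took no single direction: of 13, 3 were called higher in CamK WT and 7 higher in Grik WT, with a median log2 fold change of -0.39 (2 and 5 with the covariate for non-neuronal markers). Rgs14, a regulator of G-protein signalling, was at 175, 179, 241 and 204 CPM in CamK WT replicates 2 to 5 and 81.4, 87.3, 94.9 and 80.5 CPM in Grik WT replicates 3 to 6 (1.22 ± 0.12, adjusted p = 7.55e-09). Amigo2, an adhesion protein, was at 4.19, 4.52, 2.99 and 4.97 CPM in CamK WT replicates 2 to 5 and 26.5, 31.4, 39.8 and 38.6 CPM in Grik WT replicates 3 to 6 (-3.03 ± 0.21, adjusted p = 4.89e-11), and Ccdc3 and Vit ran with it (-2.26 ± 0.25 and -2.25 ± 0.14, adjusted p = 2.22e-07 and 5.65e-12). The groups did not overlap for these 4 genes (nor for 38.3% of all genes tested), so both sets of libraries hold part of the CA2 list at the higher level.

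Dentate granule cell markers also split, with 2 of 12 called higher in CamK WT, 1 higher in Grik WT and 9 not called. The count toward CamK WT ran from 1 to 4 as single libraries were left out, and was 4 without CamK WT replicate 4, whose summed dentate level was the lowest. Il16, a cytokine precursor of that list, was at 34.6, 27.1, 14.9 and 25.2 CPM in CamK WT replicates 2 to 5 and 126, 132, 146 and 134 CPM in Grik WT replicates 3 to 6 (-2.40 ± 0.28, adjusted p = 9.46e-07), and Lct, the lactase gene, at 80.4 ± 16.4 CPM in CamK WT and 40.95 ± 1.26 CPM in Grik WT (0.97 ± 0.12, adjusted p = 2.74e-07). The largest fold toward Grik WT among called genes with at least 1 CPM belonged to a non-coding RNA, named here after its values were seen. It is 9330175M20Rik, annotated as antisense, at 0.198, 0.166, 0.158 and 0.208 CPM in CamK WT replicates 2 to 5 and 16.6, 14.1, 13.7 and 13.8 CPM in Grik WT replicates 3 to 6 (-6.30 ± 0.29, adjusted p = 3.02e-14). Its log2 fold change was -5.54 in the libraries labelled cKO. Its span on the minus strand (chr1:51218386-51333779) encloses Cavin2 on the plus strand (chr1:51289126-51302960), with no exon bases in common, and Cavin2 was also called higher in Grik WT (-4.28).

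Trp53bp1, a DNA damage response protein, and Bcar1, a focal adhesion adaptor, were among the 8 largest differences in mean CPM toward Grik WT over called protein-coding genes without overlap. Trp53bp1 was at 1411, 1226, 649 and 851 CPM in CamK WT replicates 2 to 5 and 2803, 2856, 2854 and 4654 CPM in Grik WT replicates 3 to 6, and Bcar1 at 1058, 1018, 603 and 583 CPM in CamK WT replicates 2 to 5 and 1774, 1866, 2526 and 3182 CPM in Grik WT replicates 3 to 6. In the SST WT libraries they were at 15658 ± 5153 and 14959 ± 5866 CPM (SD, n = 4). Both were called in WT (-1.67 ± 0.37 and -1.52 ± 0.37, adjusted p = 0.00126 and 0.00289), neither in the libraries labelled cKO (adjusted p = 0.051 and 0.0761), and neither with the non-neuronal covariate (-0.24 ± 0.49 and -0.54 ± 0.63, adjusted p = 0.787 and 0.605).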
